A study of Mus musculus with 6 samples.

Results

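Single-strand break repair genes were followed as 9 named genes, Xrcc1, Lig3, Parp1, Parp2, Parg, Aplf, Aptx, Tdp1 and Tdp2, taken by exact symbol from a table of 23235 genes. All 9 were found, and all 9 were among the 11532 genes with a mean of at least 1 FPKM over the 6 libraries that were tested. FPKM is the number of sequenced fragments per kilobase of transcript and per unit of library size, so levels of different genes can be set side by side. The libraries came from LT-HSCs (long-term haematopoietic stem cells), marrow cells that sustain blood formation, sorted by flow cytometry from C57BL/6 mice aged 2 months. There were 3 wild-type (WT) and 3 Hmces knockout libraries, each from RNA of 1500 sorted cells amplified by Smart-seq2, and all 6 titles carry a 13 bp tag that the labels do not explain. The sources used here do not describe the Hmces allele, the sorting gates or whether a library came from 1 mouse or from pooled mice, and the design text speaks of duplicates where the labels list 3 libraries. P-values therefore measure only the spread between these libraries, which may be technical.

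A break in 1 strand of DNA is sensed by PARP1 and PARP2, enzymes that build chains of ADP-ribose on themselves and on nearby proteins. The chains recruit the scaffold XRCC1 with its partner DNA ligase 3 (Lig3), and PARG later takes the chains down again. Ends that cannot be joined are first cleaned, by aprataxin (Aptx) when a ligase has left an AMP group behind, by TDP1 when topoisomerase 1 is trapped on the end, and by TDP2 when topoisomerase 2 is. HMCES binds abasic sites in single-stranded DNA, a lesion whose processing can also give strand breaks, and the comparison shows how transcripts of the break repair genes stood in cells labelled as lacking it.

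The promoter windows of Parp2, Parp1 and Lig3 are shown because these genes span the range of levels described next, from the highest member to the one ranked eighth, and because each window holds the same E box, CACGTG, in capitals. They were chosen after the motif counts were seen. Windows run from 250 bases before to 50 after the start site, 5′ to 3′ on the gene's strand, from RefSeq with build GRCm38.p6, which is not the mm9 build named for the expression values. Parp2 lies on the plus strand at chr14:50807666-50807965, Parp1 on the plus strand at chr1:180568641-180568940 and Lig3 on the plus strand at chr11:82780859-82781158.
Parp2: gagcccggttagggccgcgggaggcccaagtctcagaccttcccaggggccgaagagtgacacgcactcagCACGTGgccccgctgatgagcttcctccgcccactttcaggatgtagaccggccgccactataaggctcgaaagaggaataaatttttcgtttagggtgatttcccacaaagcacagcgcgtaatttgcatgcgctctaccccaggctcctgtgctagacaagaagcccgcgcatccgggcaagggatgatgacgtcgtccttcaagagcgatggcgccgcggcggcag
Parp1: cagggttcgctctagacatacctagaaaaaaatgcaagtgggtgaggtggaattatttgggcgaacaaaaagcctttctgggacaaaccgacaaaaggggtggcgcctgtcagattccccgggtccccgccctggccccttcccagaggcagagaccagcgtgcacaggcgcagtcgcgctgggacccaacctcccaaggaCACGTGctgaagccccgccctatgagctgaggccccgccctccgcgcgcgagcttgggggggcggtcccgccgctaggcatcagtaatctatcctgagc
Lig3: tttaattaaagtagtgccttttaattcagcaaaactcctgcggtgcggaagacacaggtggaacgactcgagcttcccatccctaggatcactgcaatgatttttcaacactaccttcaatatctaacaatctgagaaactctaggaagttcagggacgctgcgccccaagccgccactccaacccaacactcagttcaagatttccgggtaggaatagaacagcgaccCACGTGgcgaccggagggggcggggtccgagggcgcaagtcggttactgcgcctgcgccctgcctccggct
Windows were found for 8 of the 9 genes, all but Tdp2, with 2 start sites each for Parg and Aptx. Both strands were searched for 7 motifs, and a gene was counted if any of its windows held a match. CACGTG was found in 3 of the 8 genes and in 7.15% of all 32851 windows. The GC box GGGCGG was found in 5 genes (35.7% of all windows), with 4 matches in Parp1. The ETS motif CCGGAAG was found in 3, Parg, Tdp1 and Aptx (8.86%), CCAAT in 3, Xrcc1, Aptx and Aplf (37.4%), the NRF1 consensus in 2, Lig3 and Tdp1 (6.23%), the E2F motif TTCCCGC in Parg alone (4.60%) and TATAAA in 0 (13.6%). Matches can overlap, as those of the ETS motif do in Tdp1. CpG dinucleotides ranged from 7 in the Xrcc1 window to 33 in the second Parg window, against a median of 7 over all windows. A match describes these letters only.

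In WT cells the 9 genes fell into a high set near 50 FPKM and a low set under 20 FPKM. Parp2 had the highest mean, 62.4 ± 8.09 FPKM (SD, n = 3 for every mean here), followed by Parp1 at 56.8 ± 3.34, Tdp2 at 53.2 ± 7.91, Xrcc1 at 45.5 ± 7.22 and Tdp1 at 43.9 ± 6.74 FPKM. Neighbours within these 5 had overlapping WT values, so their order is not separated from the spread. Tdp1 then stood 2.70-fold above Parg, which had 16.3 ± 1.82 FPKM, and the values of that pair did not overlap. Parg was separated in turn from Aplf, at 11.01 ± 2.09 FPKM, and Aplf from Lig3, at 7.20 ± 1.20 FPKM. Lig3 and Aptx, at 5.30 ± 1.96 FPKM, overlapped. Among all genes tested the WT mean of Parp2 lay at percentile 82.8 and that of Aptx at percentile 29.0. The knockout means kept this order except that Parp1 ranked above Parp2.

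**Figure D1:**
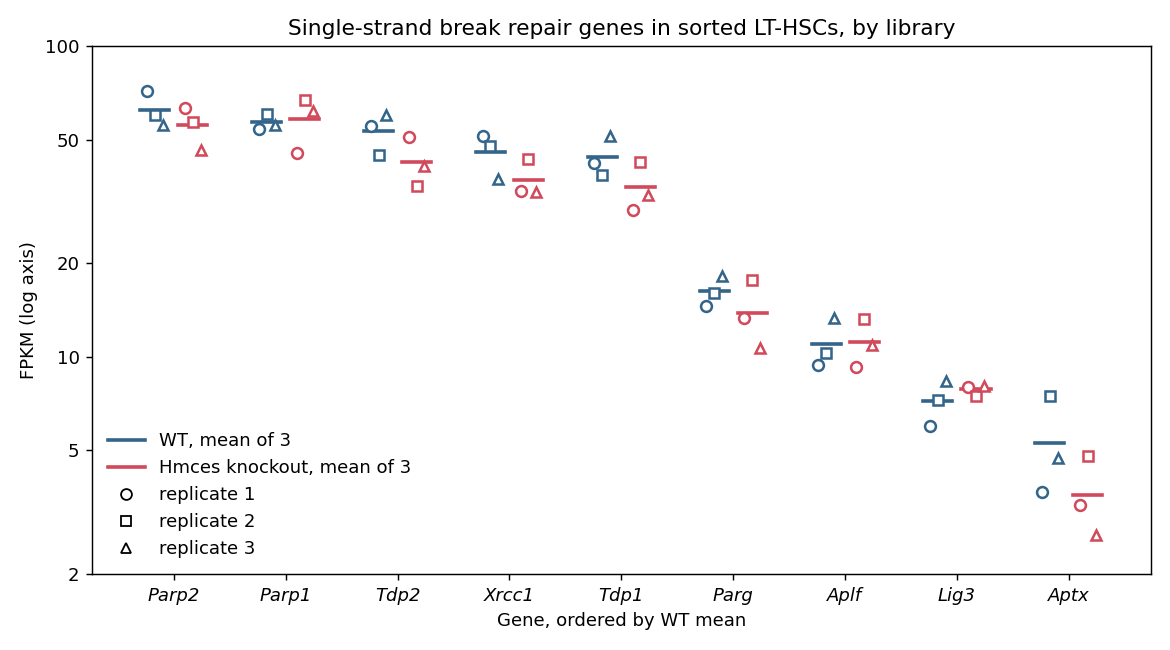
FPKM on a log axis for the 9 genes, ordered by WT mean, with the WT libraries in blue, the Hmces knockout libraries in red, marker shapes for the replicate number and a bar at each mean of 3. Every gene has overlapping WT and knockout values, and a gap separates the 5 genes with WT means of 43.9 FPKM or more from the other 4, at 16.3 FPKM or less.

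No member changed past the test in Hmces knockout cells. With limma on log2(FPKM + 1) and Benjamini-Hochberg adjustment over all genes tested, 0 of the 9 members had an adjusted p under 0.05, where 0.113% of all genes did, and 0 had an unadjusted p under 0.05, where 9.16% of all genes did. The WT and knockout values overlapped for all 9, where 15.8% of all genes tested did not overlap. For a list of 9 genes, counts of 0 are near what these shares give. The log2 fold change, knockout minus WT, was negative for 6 members and positive for 3, with 51.9% of all genes negative. Its median over the members was -0.24, beside -0.01 over all genes tested, and it was -0.08 without knockout replicate 3. Single values ran from -0.44 for Aptx to 0.12 for Lig3, all inside the middle 90% of all genes tested, which spans -0.67 to 0.73. Adjusted p-values lay between 0.638 and 0.989. Exact two-sided permutation tests of each gene gave p between 0.2 and 1.0, where 3 against 3 libraries can give no less than 0.1.

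**Figure D2:**
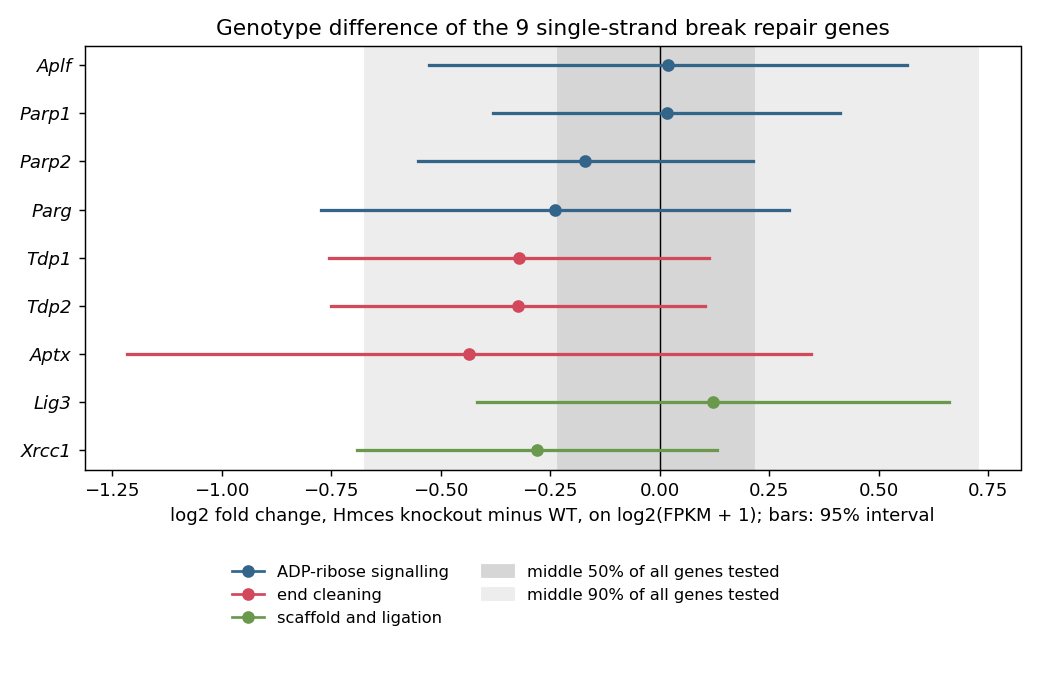
Log2 fold change of each member (point) with its 95% interval from limma (bar), coloured by role, over grey bands for the middle 50% and 90% of all genes tested. All 9 intervals include 0, and the 3 end cleaning genes lie at -0.32 or below.

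Hmces itself, listed as 8430410A17Rik, checks the labels. It stood at 39.5, 45.4 and 41.0 FPKM in the WT replicates, against 8.95, 0.222 and 6.95 FPKM in those of the knockout, 12.8% of the WT mean, with no overlap (limma adjusted p = 0.289). Of 12 LT-HSC markers, 10 reached a mean of 1 FPKM, with Kit between 101 and 141 FPKM and Meis1 between 122 and 160 FPKM in the 6 libraries. Ly6a, which encodes the stem cell antigen Sca-1, and Tek, a receptor gene, were higher in the knockout without overlap, at 135% and 129% of the WT mean (limma adjusted p = 0.488 and 0.703). Fgd5 and Hoxb5, which are used to define long-term stem cells, stayed at or below 1.23 and 0.912 FPKM in every library. Granulocyte and monocyte transcripts were also present in both genotypes, and most of those listed were higher in the knockout. The summed level of the 11 markers found, of 12 listed, ran from 6535 to 10306 FPKM in WT and from 18495 to 24859 FPKM in knockout libraries. A large part was S100a8, with means of 4135 FPKM in WT and 9853 FPKM in the knockout. Of the 11, 10 were higher in knockout without overlap, and none was at 0 throughout. The exception was Csf1r, at 4.94 FPKM in WT against 4.80 FPKM in the knockout (limma adjusted p = 0.987). Limma called 2 of the 11, Mpo and Ctsg (adjusted p = 0.0307 and 0.0494). The summed levels of erythroid, B cell, T and NK cell, megakaryocyte and macrophage markers overlapped between the genotypes, with 1 marker higher in the knockout without overlap (Cd3d) and 1 lower (Fcna). The part of these cells in the levels of the repair genes was not tested, and in bulk samples fewer cells of a type and less RNA per cell cannot be told apart. Estimated depth was 9400000 to 14100000 fragments per library, and on the first principal component knockout replicate 2 scored 67.0, away from the -33.6 to 10.1 of the others.

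The 2 polymerases that build ADP-ribose chains had the highest mean levels of the 9 genes in both genotypes. Parp1, the main sensor of strand breaks, stood at 54.0, 60.5 and 55.8 FPKM in WT replicates 1 to 3, against 45.3, 67.2 and 61.9 FPKM in replicates 1 to 3 of the knockout. The knockout values lay on both sides of the WT range, and their spread was wider, with a coefficient of variation of 19.7% against 5.89%. The fitted fold was 1.01, with a 95% interval from 0.768 to 1.33 (limma adjusted p = 0.989). Parp2, the second break-activated polymerase, stood at 71.4, 59.9 and 55.8 FPKM in the WT replicates, against 63.2, 57.0 and 46.3 FPKM in those of the knockout, so that only knockout replicate 3 fell below the WT range. Its fitted fold was 0.889 (95% interval 0.682 to 1.16, adjusted p = 0.778). Within a library the ratio of Parp1 to Parp2 was 0.757, 1.01 and 0.999 in WT and 0.716, 1.18 and 1.34 in knockout. The pair was thus transcribed to nearly equal FPKM in WT replicates 2 and 3, and the ratios of the genotypes overlapped.

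Parg, the hydrolase that removes ADP-ribose chains, stood at 14.6, 16.0 and 18.2 FPKM in the WT replicates. Its knockout values were 13.3, 17.7 and 10.6 FPKM, with replicates 1 and 3 below the WT range and replicate 2 inside it. The fitted fold was 0.847 (95% interval 0.585 to 1.23, limma adjusted p = 0.775). Parp1 exceeded Parg by 3.51 ± 0.392 times in WT, against 4.34 ± 1.30 times in the knockout (SD, n = 3), with overlapping values.

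Aplf, a histone-binding protein that reads ADP-ribose chains and also serves end joining, has its gene on mouse chromosome 6, as does Hmces. RefSeq annotates 11 genes between them, 8 of them protein coding, so Aplf is a neighbour of the targeted gene. It stood at 9.39, 10.3 and 13.4 FPKM in the WT replicates, against 9.30, 13.3 and 10.9 FPKM in those of the knockout. The ranges nearly coincide, and the knockout mean was 101% of the WT mean, where that of Hmces was 12.8%. The fitted fold was 1.01 (95% interval 0.695 to 1.48, limma adjusted p = 0.989).

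The scaffold and the ligase it binds stood at different levels and did not follow each other. Xrcc1 stood at 51.3, 47.7 and 37.4 FPKM in the WT replicates, against 34.3, 43.3 and 33.9 FPKM in those of the knockout. Knockout replicates 1 and 3 lay below all WT values and replicate 2 lay within them. The fitted fold was 0.824 (95% interval 0.619 to 1.10, limma adjusted p = 0.679). Lig3, the ligase that seals the nick and that also serves mitochondrial DNA, stood at 5.98, 7.26 and 8.37 FPKM in the WT replicates, against 8.01, 7.504 and 8.08 FPKM in those of the knockout. Its 3 knockout values were close together and inside the WT range, with a fitted fold of 1.09 (95% interval 0.749 to 1.58, adjusted p = 0.901). Per length, Xrcc1 exceeded Lig3 by 6.54 ± 2.06 times in WT, against 4.75 ± 0.889 times in the knockout (SD, n = 3), with overlapping values. The table gives 1 value for Lig3, which does not tell its nuclear and mitochondrial roles apart.

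The 3 end cleaning genes each had a negative log2 fold change, and none passed the test. With 1 library left out it ran from -0.46 to -0.21 for Tdp1, from -0.46 to -0.20 for Tdp2 and from -0.63 to -0.20 for Aptx, and their rank among the members changed with the library left out. Tdp1, the phosphodiesterase that frees ends from trapped topoisomerase 1, stood at 42.0, 38.4 and 51.4 FPKM in the WT replicates, against 29.6, 42.4 and 33.2 FPKM in those of the knockout. Knockout replicates 1 and 3 were below every WT value and replicate 2 was not. The fitted fold was 0.800 (95% interval 0.592 to 1.08, limma adjusted p = 0.646). Tdp2, its counterpart for topoisomerase 2, stood at 55.2, 44.5 and 60.0 FPKM in the WT replicates, against 50.9, 35.3 and 41.1 FPKM in those of the knockout. Here replicates 2 and 3 of the knockout were below every WT value, and replicate 1 was not. The fitted fold was 0.799 (95% interval 0.594 to 1.07, adjusted p = 0.638). The ratio of Tdp1 to Tdp2 was 0.827 ± 0.0567 in WT, against 0.863 ± 0.313 in the knockout (SD, n = 3). The knockout ratios, 0.582, 1.20 and 0.807, spread to both sides of the WT values.

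Aptx, the enzyme that removes AMP from failed ligations, was the scarcest member. It stood at 3.69, 7.47 and 4.73 FPKM in the WT replicates, against 3.33, 4.80 and 2.67 FPKM in those of the knockout. WT replicate 2 was high, and knockout replicate 2 exceeded the other WT values. The fitted fold of 0.740 had the widest interval of the 9 genes, from 0.431 to 1.27 (limma adjusted p = 0.718). With the longest annotated transcript taken as the length of each gene, an estimated 130 to 503 fragments lay behind each Aptx value and 1570 to 2888 behind each Parp1 value. These numbers are only a guide, since a shorter transcript would give fewer fragments. The Aptx values had a coefficient of variation of 36.9% in WT and 30.3% in knockout libraries.

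Across libraries the members did not move as a block. Knockout replicate 3 held the lowest value of 4 members, Xrcc1, Parp2, Parg and Aptx, and knockout replicate 1 that of 3, Parp1, Tdp1 and Aplf. WT replicate 3 held the highest value of 5 members. The median deviation of the members from their WT means on the log2 scale was -0.27, -0.04 and -0.38 in knockout replicates 1 to 3, so the library that stood apart on the first principal component was the one nearest to WT by this median. In it 5 of the 9 members were below their WT mean, against 7 and 6 in replicates 1 and 3. Over the 6 libraries 23 of the 36 pairs of members had a positive Pearson correlation of log2(FPKM + 1) and 13 a negative one, with a median of 0.24. The extremes were -0.86 for Xrcc1 with Lig3 and 0.78 for Parg with Tdp1. These correlations describe 6 libraries that share their depth and cell makeup across genes.

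**Figure D3:**
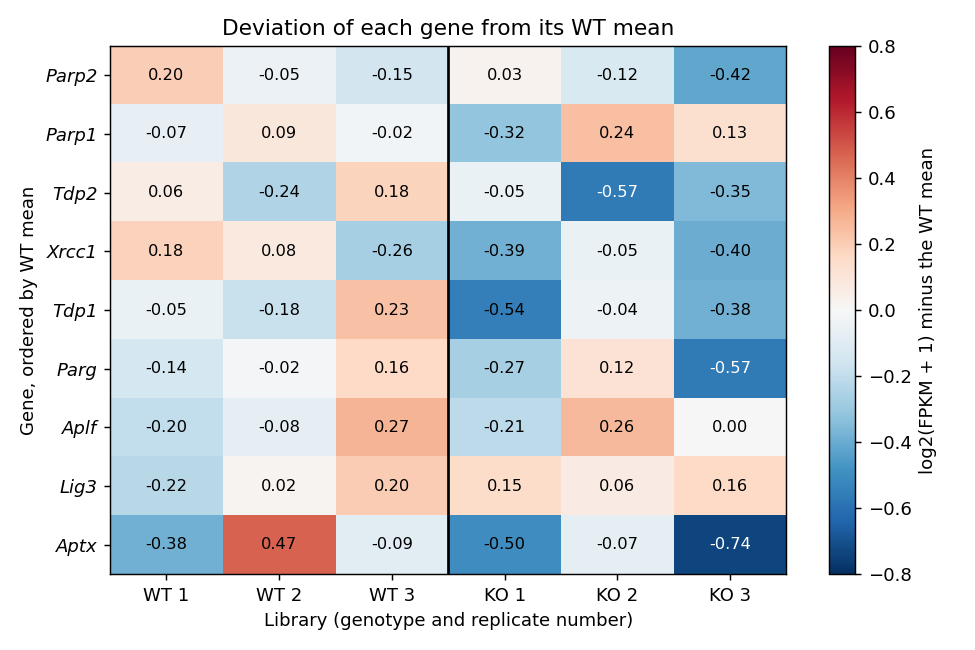
Log2(FPKM + 1) minus the gene's WT mean, with 1 cell per gene and library, red above and blue below the WT mean. Knockout replicates 1 and 3 (KO 1 and KO 3) are mostly blue, Lig3 is slightly above its WT mean in every knockout library, and Aptx varies most within WT, from -0.38 to 0.47.

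Among 6701 other genes with a mean of at least 10 FPKM, those most like Parp2 over the 6 libraries by Pearson correlation were Znhit2-ps (0.97), Pex11a (0.96) and Rassf1 (0.95). Pex11a stood at 16.0, 13.7 and 11.7 FPKM in the WT replicates, against 13.6, 10.4 and 8.41 FPKM in those of the knockout. As many as 29 genes had a correlation above 0.9 with Parp2 over these 6 points, so the likeness is not particular to the 3.

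The partners of these genes did not change past the test either. All 21 partners described here were found, Hpf1 as 2700029M09Rik and Oard1 as AI314976, and all were tested. Limma called 0 of them (0.113% of all genes), 0 had an unadjusted p under 0.05 (9.16% of all genes), and 0 had groups without overlap (15.8% of all genes). For a list of this size 0 called is what the share over all genes gives. There were 10 with a positive and 11 with a negative log2 fold change, their median was -0.0091, and adjusted p-values ran from 0.733 to 0.998.

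Of the 6 partners in end tailoring, gap filling and ligation, 3 had a positive log2 fold change and 3 a negative one. Polb, the gap-filling polymerase, averaged 31.3 ± 7.04 FPKM in WT against 32.7 ± 3.07 FPKM in the knockout. Apex1, the main abasic site endonuclease, had 50.8 ± 5.90 and 44.6 ± 6.37 FPKM, and its relative Apex2 had 7.85 ± 2.202 and 8.39 ± 3.64 FPKM. The long-patch enzymes were abundant. Pcna, the sliding clamp of replication, had 368 ± 53.6 and 341 ± 27.4 FPKM, the flap endonuclease Fen1 had 74.97 ± 8.43 and 76.8 ± 9.19 FPKM, and the replicative ligase Lig1 had 53.6 ± 4.51 and 46.1 ± 12.5 FPKM (SD, n = 3 each). Lig1 thus exceeded Lig3 per length in both genotypes, at 53.6 against 7.20 FPKM in WT.

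Of the 7 genes that write, read or remove ADP-ribose, 4 had a positive log2 fold change, and their median was 0.02. Parp3, another break-activated enzyme of the PARP family, averaged 7.88 ± 1.93 FPKM in WT against 6.83 ± 2.48 FPKM in the knockout. The ADP-ribose hydrolase genes Macrod2 and Adprhl2 had 3.11 ± 0.299 and 3.53 ± 1.49 FPKM, and 68.8 ± 8.96 and 71.7 ± 10.6 FPKM. Of the 6 topoisomerase genes 3 were positive, with a median of -0.00053. Top3b had 37.7 ± 3.71 and 42.4 ± 7.39 FPKM, and the mitochondrial enzyme gene Top1mt had 11.9 ± 1.503 and 9.74 ± 5.24 FPKM, with knockout replicate 2 at 4.37 FPKM. Both genes of nuclear NAD supply were negative. Nmnat1, which makes the NAD that the PARP enzymes consume in the nucleus, stood at 9.999, 4.66 and 7.10 FPKM in the WT replicates, against 9.76, 1.78 and 4.43 FPKM in those of the knockout, with a log2 fold change of -0.54 (SE 0.50, limma adjusted p = 0.768). That value was -0.059 without knockout replicate 2 and -1.03 without knockout replicate 1.

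**Figure D4:**
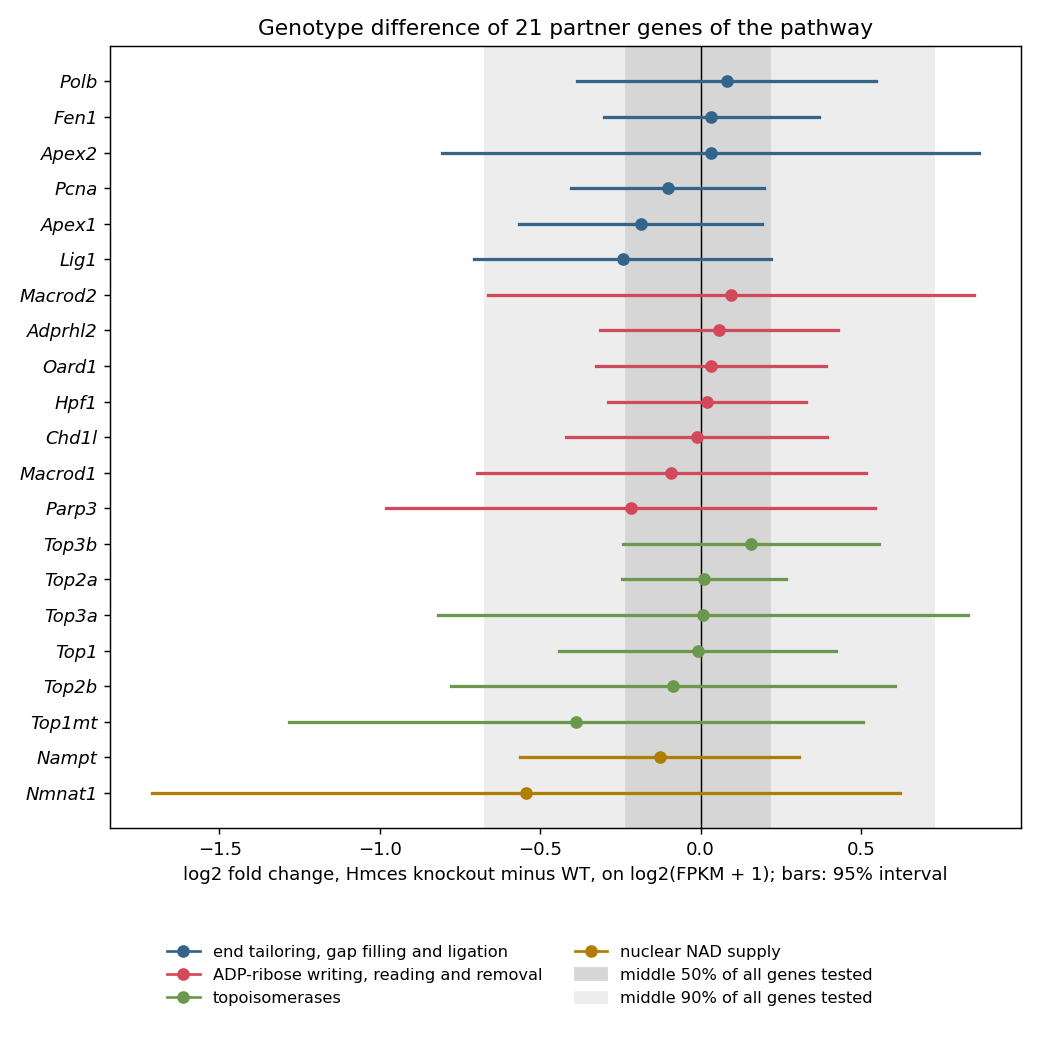
Log2 fold change of the 21 partner genes (points) with 95% intervals from limma (bars), grouped and coloured by role, over grey bands for the middle 50% and 90% of all genes tested. All 21 intervals include 0, and Nmnat1 and Top1mt lie at -0.54 and -0.39.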

How the data were processed

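RNA was sequenced as paired-end reads of 150 bp from 3 WT and 3 Hmces knockout libraries. The authors deposited FPKM values in 1 table with 1 column per library, with the tools TopHat2 2.1.1 and Cufflinks 2.2.1 and the build mm9 listed in the submitters' processing notes. Annotation, options and use of strand are not stated there, so overlapping genes are less certain.

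Genes averaging at least 1 FPKM were fitted as log2(FPKM + 1) with limma 3.58.1 in R 4.3.3 (mean-variance trend, genotype as the only term, two-sided) and called at a Benjamini-Hochberg adjusted p under 0.05 over all 11532 genes. Fold changes are on that scale and understate changes of low genes. Scripts were tested on simulated data. Members and lists were chosen with earlier results of these data known, so lists are described without a test. All members were named, as were, of the partners, all in end tailoring and the 4 highest and 4 lowest fold changes. 1 partner is not reported here. Older symbols were matched through RefSeq synonyms.

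Depth was estimated from the commonest low value of 300 single-transcript genes over 1500 nt in GENCODE M21, taken as 1 fragment of 200 nt. It covers counting error only. Alternatives were other pseudocounts, filters, variance models and scalings, a replicate block and leaving out each library.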

Additional observations from a re-analysis of the deposited data

How the results depend on the processing

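Under each of the 16 alternative fits 0 members and 0 partners had an adjusted p under 0.05. The smallest adjusted p of any member was 0.415, for Tdp2 without knockout replicate 1, where its unadjusted p was 0.0394, and Tdp1 had an unadjusted p of 0.0370 without knockout replicate 2. The median log2 fold change of the members stayed negative, between -0.22 and -0.076 when 1 library was left out, with -0.076 the value without knockout replicate 3. The number of genes called over the whole table was 13, and it became 1 when low genes were kept, 6 when the variance trend was dropped, 20 with robust estimation, 2 with the replicate block and 2 to 19 with 1 library left out (5 without knockout replicate 2, 2 without knockout replicate 3 and 7 without WT replicate 2). Xrcc1, Parp2, Parg, Tdp1, Tdp2 and Lig3 kept their sign in 16 of 16 alternatives and Aptx in the 15 that tested it, since its mean is below 5 FPKM. Aplf was at -0.0052 under quantile normalization. With 1 library left out the log2 fold change took both signs for Aplf (-0.10 to 0.16), Parp1 (-0.10 to 0.18), Fen1 (-0.062 to 0.11), Polb (-0.11 to 0.20), Apex2 (-0.23 to 0.37), Pcna (-0.20 to 0.0075), Macrod2 (-0.16 to 0.26), Adprhl2 (-0.057 to 0.14), Top1mt (-0.74 to 0.045) and Parp3 (-0.38 to 0.081). Nmnat1 ran from -1.03 to -0.059, and Lig1 was lower than Nmnat1 without knockout replicate 2, at -0.44. Same-numbered libraries of the 2 genotypes had correlations of deviations of 0.08, 0.011 and 0.035. WT replicates 1 and 2 correlated best with their own number, but WT replicate 3 did so with knockout replicate 2, at 0.048. With values this small, pairing by number was not shown and is not excluded. The block changed no call of a member. The 95% intervals of the members reach from a fitted fold of 0.431 to 1.58 on log2(FPKM + 1), a scale that understates changes of low genes. Changes within each gene's interval are therefore not excluded by these 3 libraries per genotype.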
